A study of Homo sapiens with 8 samples.

Results

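Transcripts of 7 matrix metalloproteinases (MMP1, MMP2, MMP7, MMP9, MMP10, MMP13 and MMP14) and 3 tissue inhibitors of metalloproteinases (TIMP1, TIMP2 and TIMP3) were followed in 8 xenograft tumours. They were chosen by gene symbol and are 10 of the 59050 genes counted in each library, and 10 of the 27 MMP and TIMP genes looked up. The tumours grew from H2122 cells, a human lung cancer line in long-standing laboratory use. In 4 of them the cells were parental (genotype WT) and in 4 the gene SMARCA4, whose product is the motor of SWI/SNF complexes that move nucleosomes, had been knocked out (SMARCA4 KO). All 8 had received vehicle, so no group was free of that treatment. Whether the knockout line is a single clone, the host strain and the age of the hosts were not given in the sources used here.

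Matrix metalloproteinases are zinc-dependent endopeptidases that cut collagens, other matrix proteins and proteins at the cell surface. Most are secreted as inactive proenzymes, held closed by a cysteine in the propeptide, and are opened by plasmin, furin-like convertases or other MMPs. TIMPs close the active site by placing their amino end on the zinc ion. TIMP2 also has a second role, since it links pro-MMP2 to the membrane-bound MMP14, which then cuts the propeptide of MMP2. In lung tumours these transcripts can come from the cancer cells, from fibroblasts and from leukocytes.

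The coding bases of the zinc site are shown because they are the feature the 7 enzymes have in common, and they let the enzymes be told apart. Each line holds 33 bases, 5′ to 3′, from the GENCODE 29 transcript on GRCh38, with the 4 codons of the catalytic glutamate and the 3 zinc-binding histidines in capitals. MMP3, the closest relative of MMP10, is added.
MMP1: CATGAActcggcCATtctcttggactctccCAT
MMP13: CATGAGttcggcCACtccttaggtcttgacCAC
MMP10: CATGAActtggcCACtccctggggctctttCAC
MMP3: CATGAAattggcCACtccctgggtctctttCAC
MMP7: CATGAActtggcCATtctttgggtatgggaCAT
MMP2: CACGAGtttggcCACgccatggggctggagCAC
MMP9: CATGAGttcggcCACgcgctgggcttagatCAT
MMP14: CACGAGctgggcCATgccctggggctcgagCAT

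Each site lay in 1 exon. For MMP10 it was exon 5, at chr11:102776718-102776750 on the minus strand, and for MMP13 exon 5, at chr11:102952115-102952147 on the minus strand. The collagenases MMP1 and MMP13 differed at 11 of the 33 bases, and the gelatinases MMP2 and MMP9 at 9. MMP3 and MMP10 differed at only 2, and their whole coding sequences were identical at 1216 of 1428 aligned bases (85.2%). For MMP1 and MMP13 the identity was 60.6%.

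For the inhibitors, the 27 bases that encode the start of the mature protein are shown, since this end enters the active site of the enzyme. The codons of the cysteine that binds the zinc ion and of the next cysteine are in capitals.
TIMP1: TGCaccTGTgtcccaccccacccacag
TIMP2: TGCagcTGCtccccggtgcacccgcaa
TIMP3: TGCacaTGCtcgcccagccacccccag

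TIMP1 and TIMP2 differed at 10 of these 27 bases, and TIMP2 and TIMP3 at 9. Over the whole coding sequence TIMP1 and TIMP2 were identical at 59.0% of aligned bases. No run of 50 exon bases of TIMP1 or TIMP3 was found in another gene, and 2.68% of such runs of TIMP2 were found in CEP295NL.

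Libraries held 19785922 to 23191698 gene counts, and 79.1% to 85.2% of the reads listed were assigned to a gene. Levels are given in CPM, the read count relative to the library size as scaled by edgeR, and 1 CPM was worth 19.3 to 23.5 reads. Mitochondrial genes took 4.74% to 9.47% of gene counts in parental and 8.57% to 10.9% in knockout tumours. The knocked-out gene behaved as labelled: SMARCA4 was at 198 to 235 CPM in parental and 22.3 to 31.1 CPM in knockout tumours (log2 fold change -3.02, SE 0.117, edgeR quasi-likelihood adjusted p = 1.45e-07). Of 7 tested epithelial markers KRT7 and KRT19 fell and 5 were not called (median log2 fold change of the 7, 0.08), and NKX2-1, a factor of the lung lineage, had 0 counts in every library. Of the neutrophil markers, S100A8 and S100A9, which epithelial cells also make, rose, while MPO, ELANE and CXCR2 stayed at or under 0.179 CPM. Of 2 tested endothelial markers, PECAM1 was not called (log2 fold change 0.30) and VWF was lower, and the summed endothelial markers overlapped, at 7.41 to 18.4 CPM in parental and 9.06 to 15.5 CPM in knockout tumours. Summed markers of leukocytes and macrophages ranged from 7.02 to 68.3 CPM in parental and 12.1 to 28.7 CPM in knockout tumours, with parental replicates 2 and 3 highest at 68.3 and 59.0 CPM, and none of 6 tested markers passed the test. In bulk RNA, fewer cells of a type and less RNA per cell cannot be told apart.

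All 10 genes passed the filter on low counts, and 7 of them passed the test between knockout and parental tumours (edgeR, adjusted p under 0.05). TIMP2, MMP1, MMP10, TIMP3 and MMP14 were higher in the knockout, and MMP13 and TIMP1 were lower. The test called 27.0% of all 16219 genes tested, 13.0% as higher and 14.1% as lower, so a changed gene was common in this comparison. In 5 of the 10 genes the tumours of the groups did not overlap, against 29.3% of all genes. Of those 5, TIMP2, MMP10 and TIMP3 lay above the parental tumours (14.0% of all genes did) and MMP13 and TIMP1 lay below (15.3%). The median log2 fold change was 0.18 over the 10 genes and 0.0035 over all genes tested. The count of 7 fell to 4 without parental replicate 1 and to 4 without knockout replicate 1.

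**Figure D1:**
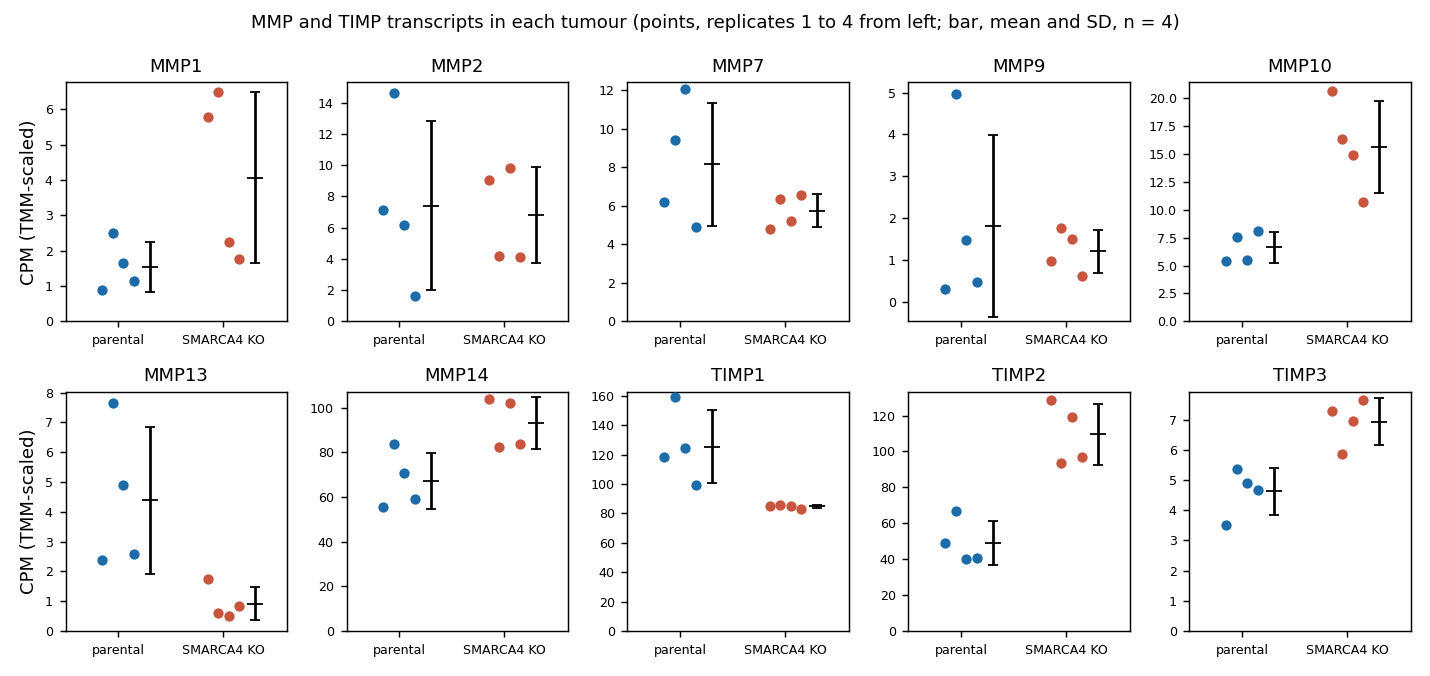
Transcript level of each gene in every tumour, in CPM on scaled library sizes, each gene with its own vertical axis. Points are the 4 parental (blue) and 4 knockout (red) tumours in order of replicate, and black bars give the mean and SD; the knockout points of TIMP2 and MMP10 all lie above the parental ones, those of MMP13 and TIMP1 all below, and parental replicate 2 stands highest for MMP9 at 4.98 CPM.

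The inhibitors moved in opposite directions. TIMP1, a secreted inhibitor of most MMPs that is also known as a growth factor, was at 118, 159, 125 and 99.6 CPM in parental replicates 1 to 4 and at 85.2, 85.8, 85.0 and 83.1 CPM in knockout replicates 1 to 4. Every knockout tumour lay under every parental one, and the knockout values were almost the same, with a coefficient of variation of 1.37% against 19.8% in parental tumours. Over all genes, pairs of knockout libraries were also mostly closer than parental pairs. Their chi-square per degree of freedom was 9.13 to 25.3 against 19.8 to 53.7. The parental mean of 125 ± 24.9 CPM fell to 84.8 ± 1.16 CPM in the knockout (SD, n = 4 each), and the log2 fold change was -0.57 (SE 0.124, 95% interval -0.84 to -0.29, edgeR adjusted p = 0.00590). The parental tumours with the most and the least TIMP1, replicates 2 and 4, also had the highest and the lowest leukocyte marker sum, 68.3 and 7.02 CPM, and the part of those cells in the result was not tested. Without parental replicates 2 and 3, the parental tumours with the most TIMP1, the log2 fold change was -0.37 (adjusted p = 0.0171). Leaving them out makes the fall smaller by construction, so this value is a description.

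TIMP2, which inhibits MMP2 and also joins pro-MMP2 to MMP14, was at 49.1, 66.6, 40.2 and 40.6 CPM in parental and at 129, 93.4, 119 and 97.1 CPM in knockout tumours. The lowest knockout tumour, replicate 2, lay above the highest parental tumour, also a replicate 2. The mean rose from 49.2 ± 12.3 to 110 ± 17.1 CPM (SD, n = 4 each), or 2.23-fold (log2 fold change 1.16, SE 0.167, 95% interval 0.79 to 1.53, adjusted p = 0.000413). The exons of TIMP2 are overlapped over 6.52% of their bases by AC022966.1 on the opposite strand, and strand was not stated for the counting. AC022966.1 held 1664 to 1880 counts in parental and 2144 to 2238 in knockout tumours, and it rose by less, 0.32 on the log2 scale (adjusted p = 0.0122).

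TIMP3, which stays bound to the matrix and also inhibits ADAM proteinases, was at 3.52, 5.37, 4.91 and 4.68 CPM in parental and 7.29, 5.85, 6.95 and 7.66 CPM in knockout tumours. The groups did not overlap, but the gap between parental replicate 2 and knockout replicate 2 was narrow. The parental mean of 4.62 ± 0.787 CPM rose to 6.94 ± 0.779 CPM (SD, n = 4 each), and the log2 fold change was 0.58 (SE 0.165, 95% interval 0.22 to 0.95, adjusted p = 0.0216). The call was lost when any of 4 tumours was left out: the adjusted p was 0.0588 without parental replicate 1, and 0.0592, 0.0514 and 0.0531 without knockout replicates 1, 3 and 4. With the replicate number as a block it was 0.0528.

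MMP14, the membrane-bound enzyme that cuts collagen and activates pro-MMP2, was at 55.4, 83.6, 70.5 and 59.0 CPM in parental and 104, 82.2, 102 and 83.8 CPM in knockout tumours. Parental replicate 2 lay above the lowest knockout tumour, so the groups overlapped. The mean rose from 67.1 ± 12.7 to 93.0 ± 11.6 CPM (SD, n = 4 each), or 1.39-fold (log2 fold change 0.47, SE 0.137, adjusted p = 0.0250). The adjusted p was 0.0760 without parental replicate 1, 0.0622 without parental replicate 4, 0.0760 without knockout replicate 1 and 0.0734 without knockout replicate 3.

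Within each tumour, the balance of these transcripts shifted between the groups. The ratios below were chosen after the values were seen and are given with no test. There were 0.415, 0.418, 0.323 and 0.408 TIMP2 reads per TIMP1 read in parental tumours and 1.51, 1.09, 1.40 and 1.17 in knockout tumours, so TIMP1 led in every parental library and TIMP2 in every knockout library. MMP14 reads per TIMP1 read were 0.468, 0.525, 0.565 and 0.593 in parental and 1.22, 0.959, 1.20 and 1.01 in knockout tumours. MMP14 reads per TIMP2 read moved the other way, from 1.13, 1.26, 1.75 and 1.45 to 0.808, 0.881, 0.857 and 0.863. These counts are not corrected for the lengths of the transcripts, so a ratio above or under 1 does not order the molecules.

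**Figure D2:**
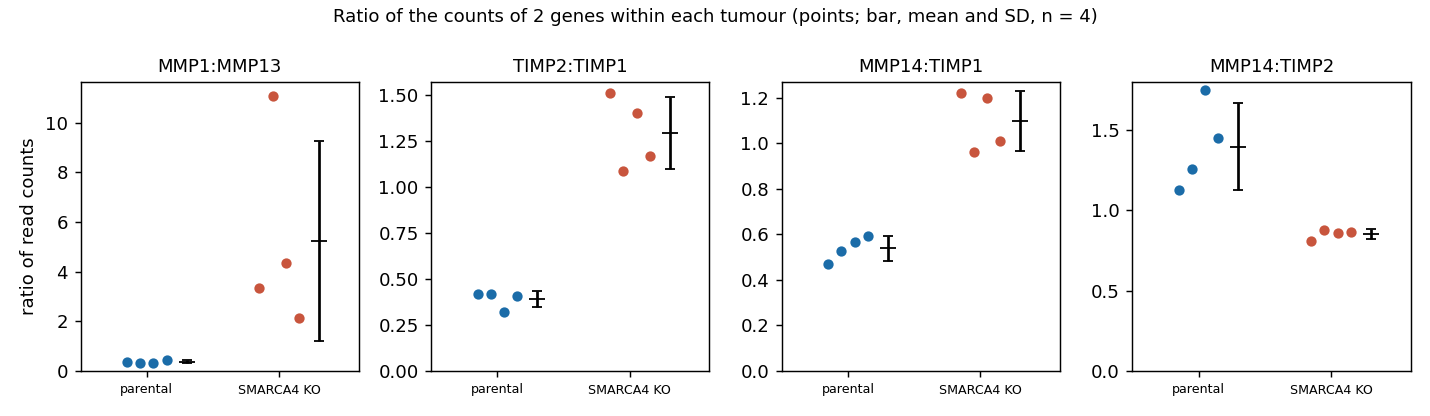
Ratio of the read counts of 2 genes within each tumour, each panel with its own linear axis. Points are tumours (parental blue, knockout red) and black bars the mean and SD of 4; in all 4 panels the groups do not overlap, and TIMP2 per TIMP1 goes from 0.323 to 0.418 in parental to 1.09 to 1.51 in knockout tumours.

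The collagenases also moved apart. MMP13, which cuts fibrillar collagen of cartilage and of tumour stroma, was at 2.38, 7.67, 4.91 and 2.59 CPM in parental and 1.73, 0.585, 0.513 and 0.840 CPM in knockout tumours, or 46, 157, 110 and 61 reads against 37, 12, 11 and 18. The highest knockout tumour, replicate 1, lay just under the lowest parental tumour, also a replicate 1. The parental mean was 4.39 ± 2.47 CPM and the knockout mean 0.917 ± 0.559 CPM (SD, n = 4 each), 4.75-fold lower (log2 fold change -2.25, SE 0.462, 95% interval -3.26 to -1.23, adjusted p = 0.00394). This was the largest change among the 10 genes. The 2 highest parental tumours, replicates 2 and 3, were the ones with the highest leukocyte marker sums. Without both the log2 fold change was -1.44 (adjusted p = 0.0237). They were left out after the data were seen, and leaving out the highest parental values makes the fall smaller by construction. The -1.44 is thus a description, and the part of leukocytes in the result was not tested.

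MMP1, the interstitial collagenase, was at 0.880, 2.49, 1.65 and 1.15 CPM in parental and 5.79, 6.48, 2.24 and 1.77 CPM in knockout tumours, which are 17, 51, 37 and 27 reads against 124, 133, 48 and 38. Knockout replicates 1 and 2 stood above the rest, while replicates 3 and 4 lay below parental replicate 2. The mean was 1.54 ± 0.708 and 4.07 ± 2.41 CPM (SD, n = 4 each), and the model gave a log2 fold change of 1.40 (SE 0.450, 95% interval 0.41 to 2.39, adjusted p = 0.0397). The call was lost when any of 5 tumours was left out, with an adjusted p of 0.103, 0.0700 and 0.0910 without parental replicates 1, 3 and 4, and of 0.113 and 0.126 without knockout replicates 1 and 2. With all 8 tumours it was also lost in limma-voom (log2 fold change 1.27, adjusted p = 0.0764). WTAPP1, a pseudogene on the opposite strand that overlaps 7.61% of the exon bases of MMP1, held 5 to 16 reads in parental and 9 to 30 in knockout tumours and was not called (log2 fold change 1.02, adjusted p = 0.103).

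MMP1 reads per MMP13 read, a ratio picked after the values were seen, were 0.370, 0.325, 0.336 and 0.443 in the parental tumours. In the knockout tumours they were 3.35, 11.1, 4.36 and 2.11. Each knockout tumour thus held more MMP1 than MMP13 reads, and each parental tumour fewer.

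MMP10, or stromelysin 2, which cuts proteoglycans and laminin and activates procollagenases, was at 5.44, 7.52, 5.49 and 8.12 CPM in parental and 20.6, 16.3, 14.9 and 10.6 CPM in knockout tumours. All knockout tumours lay above all parental ones. The mean rose from 6.64 ± 1.38 to 15.6 ± 4.11 CPM (SD, n = 4 each), or 2.34-fold (log2 fold change 1.23, SE 0.209, 95% interval 0.77 to 1.69, adjusted p = 0.00121). Of its 1756 runs of 50 exon bases, 59 (3.36%) also occur in MMP3, so a small part of the reads may be split between these genes or dropped.

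MMP7, or matrilysin, a small enzyme of epithelial cells without the hemopexin domain, was at 6.21, 9.42, 12.1 and 4.93 CPM in parental and 4.81, 6.39, 5.23 and 6.58 CPM in knockout tumours. The groups overlapped, with parental replicates 2 and 3 above the others. The mean was 8.16 ± 3.21 and 5.75 ± 0.866 CPM (SD, n = 4 each), and the difference was not called (log2 fold change -0.50, SE 0.256, 95% interval -1.07 to 0.06, adjusted p = 0.174). Without parental replicate 4 the log2 fold change was -0.69 and the adjusted p was 0.0416. Without parental replicates 2 and 3 the log2 fold change was 0.041 (adjusted p = 0.896). Leaving out the highest parental values raises the log2 fold change by construction, so the 0.041 is a description.

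MMP1, MMP7, MMP10 and MMP13 lie with MMP3 and 4 other family genes on chromosome 11, in GENCODE 29 on GRCh38, in a cluster of 9 looked-up genes that spans 435.2 kb from MMP7 (start 102520508) to MMP13 (end 102955734). Within this stretch the changes had no common direction, since MMP10 and MMP1 rose, MMP13 fell, and MMP7 was not called. MMP10 runs from 102770503 to 102780628, MMP1 from 102789920 to 102798160, MMP3 from 102835801 to 102843803 and MMP13 from 102942995 to 102955734, all on the minus strand, with MMP12, which was not tested, between MMP3 and MMP13. MMP20 and MMP27, in the same cluster, had 0 counts in every tumour, which allows up to 3 counts per library.

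The promoters of MMP7 and MMP10 are shown because these genes lie in that cluster and differed in call, and because AP-1 sites are a known element of MMP promoters. RefSeq promoter sequence, on GRCh38.p14, was found for 5 of the 10 genes. Each line gives the bases before the start of the gene, 5′ to 3′ on the minus strand, at chr11:102530754-102530997 for MMP7 and chr11:102780629-102780878 for MMP10. Capitals mark the AP-1 motif TGANTCA, searched on both strands.
MMP7: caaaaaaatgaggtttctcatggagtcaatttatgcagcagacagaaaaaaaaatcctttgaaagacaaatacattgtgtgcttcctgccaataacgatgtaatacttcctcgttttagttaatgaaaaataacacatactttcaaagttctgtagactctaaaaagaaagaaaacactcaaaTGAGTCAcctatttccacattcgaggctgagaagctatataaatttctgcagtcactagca
MMP10: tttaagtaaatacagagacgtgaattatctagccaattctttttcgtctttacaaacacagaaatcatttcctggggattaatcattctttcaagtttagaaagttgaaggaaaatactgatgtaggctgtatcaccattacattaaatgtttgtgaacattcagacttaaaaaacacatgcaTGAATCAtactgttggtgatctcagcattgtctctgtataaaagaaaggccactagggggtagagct

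The motif starts at position -67 from the RefSeq start in both, as TGAGTCA in MMP7 and TGAATCA in MMP10. It occurred in 2308 of 35116 RefSeq promoters (6.57%) over the 250 bases before the start. No match was found in the same window of MMP14, TIMP1 or TIMP3. The motif AGGAAG of ETS factors, searched on both strands, was found at 2 places in MMP7 and 1 in TIMP1 (28.7% of promoters hold it), and the RUNX motif TGTGGTT at 1 place in TIMP1 (3.65% of promoters). In TIMP1 these start at -87 and -71 from the RefSeq start. The GENCODE 29 start of TIMP1 lies 123 bases upstream of the RefSeq start, so both motifs fall inside the gene in that annotation.

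The gelatinases were not called, and both varied widely among the tumours of a group. MMP2, which cuts denatured and basement membrane collagen and is made mostly by fibroblasts in tissue, was at 7.15, 14.6, 6.16 and 1.62 CPM in parental and 9.06, 4.19, 9.85 and 4.15 CPM in knockout tumours. The groups overlapped fully, with the highest and the lowest value both in parental tumours. The mean was 7.39 ± 5.40 and 6.81 ± 3.07 CPM (SD, n = 4 each), with a log2 fold change of -0.11 (SE 0.510, 95% interval -1.23 to 1.01, adjusted p = 0.899). The interval covers both a fall and a rise of 2-fold, so a change of that size was not excluded here.

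MMP9, a gelatinase of neutrophils and macrophages and of some cancer cells, was at 0.311, 4.98, 1.47 and 0.468 CPM in parental and 0.981, 1.76, 1.49 and 0.607 CPM in knockout tumours, which are 6, 102, 33 and 11 reads against 21, 36, 32 and 13. Parental replicate 2 stood far above the other parental tumours, and the knockout tumours lay within the parental range. That library had the lowest share of reads assigned to a gene, 79.1%, and the highest share not aligned uniquely, 8.11%. Its summed skeletal muscle markers were the highest too, at 23.4 CPM, with knockout replicate 4 next at 14.6 CPM. The bearing of these on MMP9 was not tested. SLC12A5-AS1 on the opposite strand overlaps 18.4% of the exon bases of MMP9, and strand was not stated for the counting. The mean was 1.81 ± 2.18 and 1.21 ± 0.514 CPM (SD, n = 4 each), and the difference was not called (log2 fold change -0.57, SE 0.706, 95% interval -2.12 to 0.98, adjusted p = 0.592). Without parental replicate 2 the log2 fold change turned to 0.66 (adjusted p = 0.372), and without replicates 2 and 3 it was 1.59 (adjusted p = 0.0361). Those 2 tumours held the highest parental MMP9 values and were left out together after the data were seen. Leaving them out raises the value by construction, so the 1.59 and its adjusted p are a description and support no rise.

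The gelatinases were set beside summed marker lists of fibroblasts and of leukocytes and macrophages. The fibroblast markers summed to 353, 611, 348 and 182 CPM in parental and 592, 346, 607 and 379 CPM in knockout tumours. In parental tumours this is the order of MMP2, and in knockout tumours it is the same except for replicates 2 and 4, which were close in MMP2. COL1A1 made up most of these sums, at 174 to 572 CPM in parental and 317 to 565 CPM in knockout tumours. DCN, PDGFRA and THY1, which are 3 of the 10 listed fibroblast markers, stayed at or under 0.439, 0.146 and 0.0467 CPM. The sum is thus mainly a COL1A1 level, and how far it follows the number of fibroblasts was not tested. Of 6 tested fibroblast markers, LUM alone was called, as higher, at 0.104 to 0.638 CPM in parental and 10.1 to 15.5 CPM in knockout tumours. At such low parental levels LUM passed the filter on low counts only through the knockout tumours. Its direction was thus fixed by the filter, and its values are a description. The leukocyte and macrophage markers summed to 12.4, 68.3, 59.0 and 7.02 CPM in parental and 18.5, 28.7, 17.6 and 12.1 CPM in knockout tumours, and MMP9 was highest in the same parental tumours, replicates 2 and 3. PTPRC, which defines leukocytes, was highest in parental replicate 2 as well, at 11.03 CPM, and at 1.40 to 5.14 CPM in the other 7 tumours. How far host reads counted as human contribute to the MMP2 and MMP9 values was not tested.

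**Figure D3:**
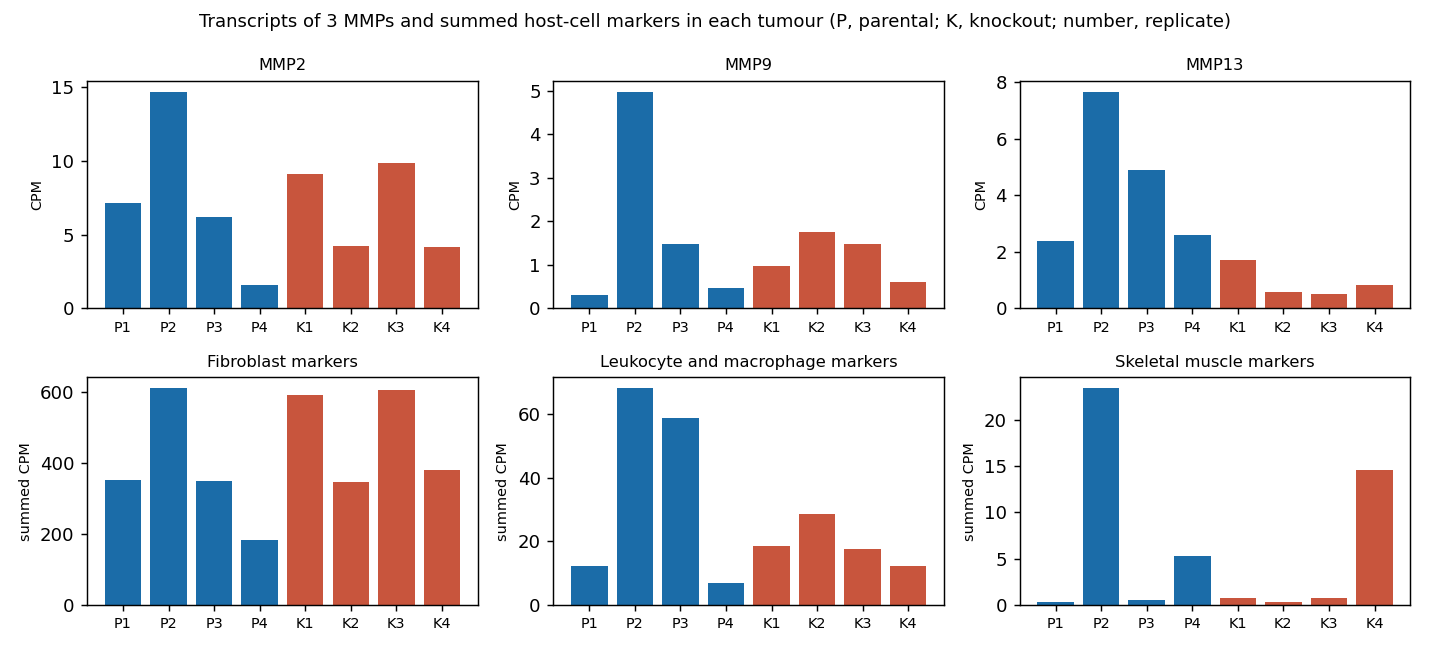
Levels of MMP2, MMP9 and MMP13 (top, CPM) and summed levels of fibroblast, leukocyte and macrophage, and skeletal muscle markers (bottom, summed CPM) in each tumour, on linear axes from 0. Bars are single tumours, P for parental (blue) and K for knockout (red), numbered by replicate. MMP2 and the fibroblast sum, which is mostly COL1A1, are both highest in P2 and lowest in P4. MMP9 and the leukocyte sum are both highest in P2.

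Divided by exon length, the levels of the 10 genes kept a wide range. In parental tumours TIMP1 stood at 81.4 ± 16.1 CPM per kb of exon, MMP14 at 15.04 ± 2.85 and TIMP2 at 8.73 ± 2.19 (SD, n = 4), and the values of these 3 genes did not overlap. MMP10 at 3.78 ± 0.786 and MMP7 at 3.51 ± 1.38 CPM per kb came next, below TIMP2, and overlapped with each other. The rest, MMP13 at 1.55 ± 0.871, MMP2 at 1.499 ± 1.10, TIMP3 at 1.00 ± 0.171, MMP1 at 0.783 ± 0.359 and MMP9 at 0.774 ± 0.932 CPM per kb, overlapped with their neighbours in the order.

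In the knockout tumours the order changed. TIMP1 was still highest at 55.0 ± 0.754 CPM per kb, but MMP14 at 20.8 ± 2.59 and TIMP2 at 19.4 ± 3.03 now overlapped. MMP10 followed at 8.88 ± 2.34 CPM per kb and no longer overlapped MMP7 at 2.48 ± 0.373. MMP13, in the middle of the parental order, was last in the knockout at 0.324 ± 0.197 CPM per kb, and MMP1 rose in the order to 2.07 ± 1.22 CPM per kb.

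Of 17 other MMP and TIMP genes looked up, 8 were tested and 4 were called, all of them higher. For MMP28 and MMP3 this direction was fixed by the filter on low counts, since each had under 10 reads in every parental tumour and entered only through the knockout tumours, so their values are a description and the tally supports nothing. MMP28, or epilysin, was at 0.259, 0.0976, 0.268 and 0.170 CPM in parental and 1.59, 2.05, 2.15 and 2.38 CPM in knockout tumours, which are 5, 2, 6 and 4 reads against 34, 42, 46 and 51 (fitted log2 fold change 3.32, SE 0.318). MMP24, a membrane-type enzyme, lay between 0.553 and 1.70 CPM in parental and between 3.998 and 5.51 CPM in knockout tumours (2.16, SE 0.284, adjusted p = 0.000215), though MMP24OS on the opposite strand overlaps 18.1% of its exon bases. MMP17, another membrane-type enzyme, lay between 4.19 and 4.59 CPM and between 7.12 and 13.7 CPM (1.08, SE 0.207, adjusted p = 0.00265).

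MMP3, or stromelysin 1, which shares most of its sequence with MMP10, held 5, 4, 2 and 1 reads in parental and 23, 63, 17 and 18 reads in knockout tumours. All knockout tumours lay above the parental ones (fitted log2 fold change 3.30, SE 0.614), and the value was 2.63 without knockout replicate 2. It rests on few reads, and reads shared with MMP10 cannot be assigned with certainty. MMP15, MMP11, MMP25 and TIMP4 were not called, with log2 fold changes of -0.02, -0.06, 0.74 and -0.17.

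**Figure D4:**
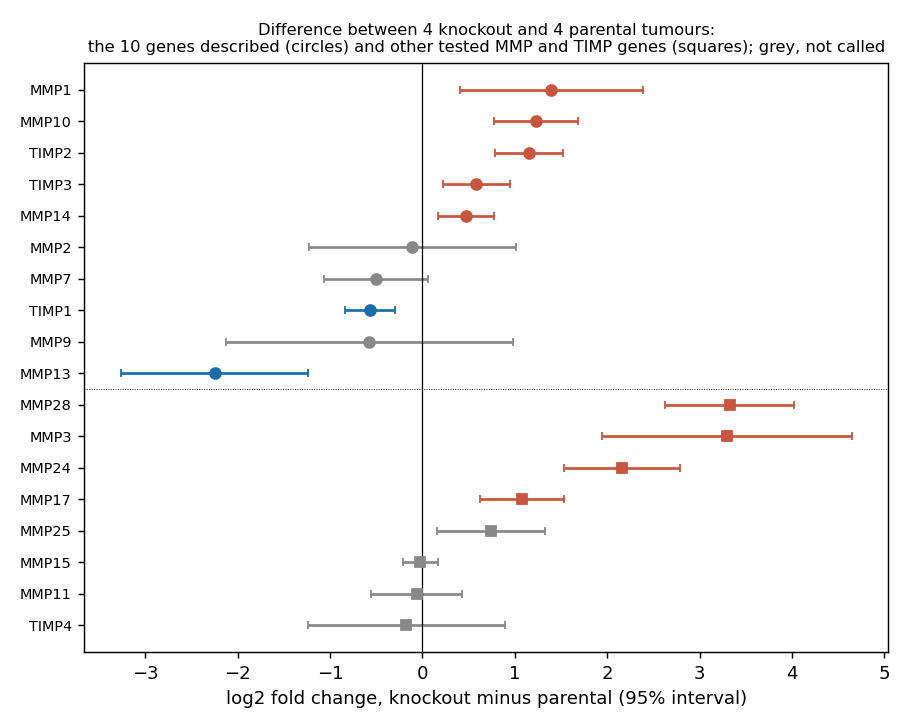
Log2 fold change of knockout against parental tumours with its 95% interval for the 10 genes (circles) and the 8 other tested MMP and TIMP genes (squares). Red marks called rises, blue called falls and grey genes that were not called; MMP13 lies farthest to the left at -2.25, MMP28, which like MMP3 passed the filter only through the knockout tumours, farthest to the right at 3.32, and the interval of MMP2 runs from -1.23 to 1.01.

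Genes listed around the opening and closing of MMPs moved in both directions. The list holds proteases and inhibitors but also surface proteins, among them the called genes CD44 (higher) and CD63 (lower). Of 22 genes in this list 19 were tested and 11 called (57.9%, against 27.0% of all genes), 5 higher and 6 lower. The median log2 fold change was -0.13. RECK, among the 5 higher, held 7, 5, 14 and 13 reads in parental and 28, 37, 29 and 34 reads in knockout tumours. It passed the filter on low counts only through the knockout tumours, so its direction was fixed and the tally is a description. TFPI2, a secreted inhibitor of plasmin and of some MMPs, rose from 1.93 ± 0.339 to 133 ± 30.7 CPM (SD, n = 4 each; log2 fold change 6.10, adjusted p = 6.61e-08). PLAT, the tissue plasminogen activator, fell from 43.4 to 4.74 CPM (adjusted p = 1.16e-05). SERPINE2, a secreted inhibitor of plasminogen activators, rose by 0.94 on the log2 scale (adjusted p = 0.000270).

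Of 16 ADAM and ADAMTS proteinases, several of which TIMP3 inhibits, 12 were tested and 8 called (66.7%, against 27.0% of all genes), 5 higher and 3 lower, with a median log2 fold change of 0.36. ADAM15 fell from 317 ± 26.7 to 135 ± 12.2 CPM and ADAM28 from 85.5 ± 21.1 to 22.8 ± 3.51 CPM (adjusted p = 5.91e-06 and 2.22e-05). ADAMTS6 rose from 4.26 ± 1.47 to 16.4 ± 4.07 CPM and ADAMTS1 from 2.21 ± 0.485 to 6.22 ± 0.666 CPM (SD, n = 4 each; adjusted p = 0.000152 and 0.000157).

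Of 21 matrix and shed substrates 18 were tested and 11 called (61.1%, against 27.0% of all genes), 9 higher and 2 lower, with a median log2 fold change of 0.52. The basement membrane collagens COL4A1 and COL4A2, substrates of the gelatinases, rose by 0.92 and 0.65 on the log2 scale (adjusted p = 0.000323 and 0.00207). COL17A1, a shed collagen of epithelial cells, and SPP1, which MMPs cleave, rose by 0.86 and 0.98 (adjusted p = 0.000231 and 0.000386). Of 14 AP-1, ETS and RUNX factors, known to bind MMP promoters, all were tested and 3 called (21.4%, under the 27.0% of all genes), with a median log2 fold change of 0.02. ETV4 and RUNX2 fell by 0.99 and 0.98 on the log2 scale (adjusted p = 7.44e-05 and 0.00187), and their bearing on the MMP genes was not tested. FOSL1, an AP-1 subunit, rose by 0.50 (adjusted p = 0.0337), a call lost without parental replicate 2 or 3 (adjusted p = 0.0687 and 0.0855) and without knockout replicate 1, 3 or 4 (0.0746, 0.0744 and 0.0847).

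The genes whose pattern over the 8 tumours was most like that of MMP13, by Pearson correlation of log2 CPM among 13044 genes, were FBXO7, TYW1 and AC005256.1, with r of 0.981, 0.980 and 0.980. For TIMP1 they included CLDN7 and ATP6AP1, with r of 0.990 and 0.986. Both sets were chosen as the highest of all genes and share the same 8 libraries, and 138 and 227 genes reached an r above 0.9. Of the MMP13 set only AC005256.1 was called (log2 fold change -1.09, adjusted p = 0.0105). Without parental replicates 2 and 3, its highest parental tumours, the adjusted p was 0.0677. FBXO7 and TYW1 differed by -0.15 and -0.16 without a call.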

How the data were processed

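RNA from 4 parental and 4 SMARCA4 knockout tumours was sequenced, with libraries built with a commercial DNA library kit, per the labels. Each deposited file lists unnormalized read counts by gene symbol, which the authors made with TopHat2 2.1.1, HTSeq 0.11.0 and hg38, per the submitters' processing notes. The annotation, counting options, strand setting and any removal of host reads were not given in the sources used here. The 5 summary lines entered neither library sizes nor tests.

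The groups were compared by the quasi-likelihood F-test of edgeR 4.0.16 in R 4.3.3, after filterByExpr (minimum count 10, minimum total 15) and TMM scaling, over 16219 genes, with Benjamini-Hochberg adjustment and a threshold of 0.05. The standard error is the log2 fold change divided by the square root of F, and the 95% interval uses the total degrees of freedom. The fit was also run on simulated counts with the same dispersion for every gene and both groups. That run does not bear on genes as variable as MMP1, MMP2, MMP9 and MMP13. CPM were computed on TMM-scaled library sizes. No source says that the tumours came from separate animals, so p-values measure the spread between these samples. No library pair agreed within sampling noise (chi-square per degree of freedom at least 9.13). The exact permutation test planned for genes under the filter was not needed. Positions, exon lengths and coding sequences came from GENCODE 29, matched by symbol.

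The 10 genes and the lists were chosen with earlier results of these data known. Named were the 10 genes, SMARCA4, the called genes of smallest p in each list (up to 4), and the 3 genes most like MMP13 and TIMP1, the called genes with the largest change and the highest level. Other genes were named after their values were seen. Genes picked by this rule but absent from the text are not reported here. Alternatives were DESeq2 1.42.0, limma-voom (limma 3.58.1), RLE and upper-quartile scaling, no filter, a filter of 1 CPM in 4 libraries, a replicate block and leaving out each tumour. Leaving out parental replicates 2 and 3 together was added after seeing the data.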

Additional observations from a re-analysis of the deposited data

How the results depend on the processing

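MMP10, MMP13, TIMP1 and TIMP2 kept their direction and call in all 15 other analyses listed apart from the one added, with log2 fold changes of 1.07 to 1.38, -2.75 to -1.84, -0.67 to -0.43 and 1.07 to 1.34. The number of the 10 genes called was 6 to 7 with all tumours, 4 to 7 with 1 tumour left out and 8 without parental replicates 2 and 3. The number higher was 4 to 5, 2 to 5 and 6, and the number lower 2, 2 to 3 and 2. The 8 and the 6 include MMP1, MMP9, MMP14 and TIMP3, whose highest parental tumours were the ones left out, which raises their values by construction. The number called was 4385 of all genes, and 3871 to 4902 in the other analyses of all tumours. It was 3501 to 4721 with 1 tumour left out and 4946 without parental replicates 2 and 3.

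The log2 fold change of MMP2 turned positive in limma-voom (0.19) and with the replicate block (0.12), and ranged from -0.45 to 0.46 with 1 tumour left out. It was 0.46 without parental replicate 2, 0.06 without knockout replicate 2 and 0.07 without knockout replicate 4. MMP9 turned to 0.12 in limma-voom and ranged from -0.92 to 0.66 with 1 tumour left out. Parental replicates 2 and 3 held the highest parental values of MMP1, MMP7, MMP9, MMP13, MMP14, TIMP1 and TIMP3. Leaving them out raises the log2 fold changes of these genes by construction. Without both, MMP2 was at 0.66, MMP7 at 0.041 and MMP9 at 1.59. The cause was not tested. MMP1 lost its call in limma-voom (adjusted p = 0.0764).

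The replicate numbers did not pair the tumours. Deviations of same-numbered tumours from their group means correlated at -0.04, -0.02, -0.19 and 0.09, and no tumour correlated best with its own number. With the replicate number as a block 3871 genes and 6 of the 10 were called, and TIMP3 lost its call (0.59, adjusted p = 0.0528). MMP3 could not be given a value under the filter of 1 CPM in 4 libraries. At 19.3 to 23.5 reads per CPM, counting error is largest for MMP1, MMP9 and MMP13.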

Other observations

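Some family members were too low to be tested. MMP12, the macrophage elastase, held 0, 19, 7 and 1 reads in parental replicates 1 to 4 and 4, 14, 8 and 3 reads in knockout replicates 1 to 4. MMP19 held 0, 20, 16 and 3 reads in parental and 3, 7, 5 and 6 reads in knockout tumours. In parental tumours both were highest in replicates 2 and 3, which also had the highest summed leukocyte and macrophage markers, at 68.3 and 59.0 CPM. The part of those cells in these counts was not tested. MMP8, the neutrophil collagenase, held at most 4 reads in any tumour, and MMP26 held 0 counts in all 8.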
